A study of Mus musculus with 7 samples.

Results

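Mitochondrial ribosomal proteins are the protein subunits of the ribosome that works inside mitochondria. The genes described here are all protein-coding mouse genes whose symbol begins with Mrpl or Mrps and goes on with a digit. Pseudogenes were left out. The rule found 78 genes among the 27179 listed in each count file, and used no measured value. By known structure, 51 of them encode proteins of the large subunit and 26 proteins of the small subunit. Mrps18a and Mrps30 carry small-subunit names but belong to the large subunit. The remaining gene, Mrps36, was named as a ribosomal protein, and its product is now known as a part of the oxoglutarate dehydrogenase complex, so it was put in neither subunit.

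The study measured RNA by sequencing in 7 sorted samples of CD8 dendritic cells from C57BL/6 mice, and its title concerns dendritic cells that are paralysed after a systemic inflammatory syndrome. CD8 dendritic cells are the type 1 conventional subset, which presents antigens of dead cells to T cells. Samples were defined by surface CD103, the integrin chain encoded by Itgae. CD103 negative replicates 1 and 2 were untreated and dated 2012, CD103 negative replicate 3 was untreated and dated 2013, and CD103 low replicates 1 and 2 were untreated and dated 2013. CD103 high replicates 1 and 2 were treated with CpG, a DNA motif that engages Toll-like receptor 9, and were dated 2012. All 7 samples share the strain and no other genotype is given. The CpG treatment and the high CD103 level always came together and cannot be told apart. No tissue, dose or time after treatment is stated in the labels used here, nor what the dates mark.

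The mitochondrial ribosome translates the few proteins that the mitochondrial genome encodes, all of them subunits of the respiratory chain or of the ATP synthase. Its ribosomal RNAs are mitochondrial, whereas its proteins are encoded in the nucleus, made in the cytoplasm and imported. Some of these proteins descend from bacterial ribosomal proteins, and others were gained in the mitochondrial lineage. In dendritic cells, activation through Toll-like receptors is known to shift energy metabolism from respiration towards glycolysis.

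Total counts ran from 4474211 to 4629181 per library, and the 78 genes took between 0.213% and 0.294% of them. Values are in CPM, the usual read counts scaled to a common library total, taken here on library sizes adjusted by the trimmed mean of M-values method (TMM). Itgae followed the sort, with 1020 and 992 CPM in the CpG libraries, 346 and 375 in CD103 low and 54.3 to 62.7 in CD103 negative, and Cd8a lay between 1210 and 1480 CPM in all 7 libraries. The summed level of 8 erythroid and platelet markers was 31.95 and 35.63 CPM in CpG CD103 high and 3.29 to 19.75 elsewhere. That of 7 B cell markers was 11.76 and 13.22 CPM in CpG CD103 high and 68.7 to 94.2 elsewhere. That of 9 neutrophil and monocyte markers was 80.09 and 44.6 CPM in CpG CD103 high and 70.45 in CD103 negative replicate 3, against 16.91 to 30.42 in the others. Of these, Ly6c2 was called higher both with CpG (log2 fold change 1.96, edgeR adjusted p 0.000943) and by date (2.24, adjusted p 0.00759). In CD103 negative replicate 3, Ly6c2 (45.8 CPM) and Csf1r (23.8) made up most of the sum, while S100a8 and S100a9 measured 0.213 each. That of 8 plasmacytoid dendritic cell markers was 226.5 and 201.5 CPM in CpG CD103 high and 232.8 in CD103 negative replicate 3, against 159.5 to 180.4 in the others. Its members differed in direction with CpG, as Pacsin1 gave 2.27 (adjusted p 4.61e-05) and Tcf4 -1.31 (adjusted p 0.00134), and Siglech measured 19.2 CPM in CD103 negative replicate 3 and at most 4.77 elsewhere. That of 8 markers of conventional type 2 dendritic cells was highest in CD103 negative replicate 3, at 86.41 CPM against 18.38 to 62.67 in the others. That of 8 T and NK cell markers was 31.95 CPM in CD103 low replicate 2 and at most 3.41 in the others. Every marker of these 6 lists had a count in at least 1 library. These levels move with the group or the date of the libraries, and their part in the results below was not tested.

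Promoter sequences show how these genes begin, and 69 of the 78 were matched by Entrez identifier in the RefSeq promoter table of build GRCm38.p6. Each entry runs from 250 bases before to 50 bases after the start. Genes for mitochondrial proteins are known for promoters that bind the factors NRF1 and GABP, the latter an ETS factor. The 250 bases before the start are shown for the 4 genes that were lower in CpG CD103 high cells and whose entries hold NRF1 or ETS matches. The entries of Mrps14, Mrps6 and Mrpl35, also lower, hold only other searched motifs and are not shown. Those of Mrps25, Mrpl45, Mrps2 and Mrpl50, also lower, hold no searched motif and are not shown. All are written 5′ to 3′ on the strand of the gene, with motif matches in capitals. Mrpl39 lies at chr16:84735245-84735494 on the minus strand, Mrpl17 at chr7:105811088-105811337 on the minus strand, Mrpl51 at chr6:125191950-125192199 on the plus strand and Mrpl52 at chr14:54426659-54426908 on the plus strand.
Mrpl39: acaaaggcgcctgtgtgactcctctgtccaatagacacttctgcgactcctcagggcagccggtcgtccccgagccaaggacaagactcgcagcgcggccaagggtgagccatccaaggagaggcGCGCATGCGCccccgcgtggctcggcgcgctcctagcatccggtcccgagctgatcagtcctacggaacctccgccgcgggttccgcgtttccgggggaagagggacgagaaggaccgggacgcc
Mrpl17: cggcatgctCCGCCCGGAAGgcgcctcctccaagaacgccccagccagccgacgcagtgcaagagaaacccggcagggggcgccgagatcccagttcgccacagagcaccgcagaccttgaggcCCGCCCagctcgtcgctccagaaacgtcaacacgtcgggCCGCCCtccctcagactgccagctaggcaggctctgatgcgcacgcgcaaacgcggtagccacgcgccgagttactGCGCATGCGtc
Mrpl51: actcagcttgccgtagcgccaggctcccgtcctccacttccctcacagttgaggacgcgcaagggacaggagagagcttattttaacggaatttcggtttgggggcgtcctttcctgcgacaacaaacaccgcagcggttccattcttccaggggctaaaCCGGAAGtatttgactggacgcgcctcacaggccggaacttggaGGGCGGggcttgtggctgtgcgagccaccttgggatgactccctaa
Mrpl52: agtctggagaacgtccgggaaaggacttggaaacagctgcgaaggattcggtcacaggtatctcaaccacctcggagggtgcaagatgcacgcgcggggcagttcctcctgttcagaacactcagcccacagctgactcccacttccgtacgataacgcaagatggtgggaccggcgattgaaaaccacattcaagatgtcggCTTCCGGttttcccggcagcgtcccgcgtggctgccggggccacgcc
In Mrpl39 the capitals mark the NRF1 core GCGCATGCG, which is found there on both strands as overlapping matches. In Mrpl17 they mark an ETS match (CCGGAAG) that overlaps an SP match (GGGCGG) read on the other strand, then 2 further SP matches read on the other strand, and an NRF1 match next to the start. In Mrpl51 they mark 1 ETS and 1 SP match, and in Mrpl52 1 ETS match read on the other strand.

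Both strands of each 300-base entry were searched. The NRF1 core stood in 7 of the 69 promoters (10.1%), against 4.08% of the promoters of all genes tested and 1.81% of all 27025 promoters in the table. The ETS core stood in 25 (36.2%), against 20.6% and 9.12%. The motif AAGATGGC of YY1, another factor with sites in such promoters, stood in 12 (17.4%), against 5.35% and 2.88%. The SP motif stood in 34 (49.3%), against 65.9% and 35.9%, and TATAAA in 4 (5.8%), against 6.44% and 14.2%. Among the genes that were lower with CpG, 11 have a promoter in the table, and 3 of these hold the ETS core, 2 the NRF1 core and 1 the YY1 motif. Of the 55 others that were tested, 22 hold the ETS core, 5 the NRF1 core and 10 the YY1 motif. These matches describe letters in a window and do not show that a factor was bound.

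The genes also share close neighbours. Of the 78, 33 (42.3%) have another protein-coding gene that starts within 1000 bases in the opposite direction, against 1829 of 10257 tested protein-coding genes (17.8%). One such pair joins 2 members, Mrps11 and Mrpl46. Other partners encode mitochondrial proteins, among them Twnk, the mitochondrial DNA helicase, beside Mrpl43, Ndufs6, a subunit of respiratory complex I, beside Mrpl36, and Sars2, the mitochondrial seryl-tRNA synthetase, beside Mrps12. The 75 genes that were tested are short, with a median counted length of 1055 bases against 2820 for all genes tested, and their median GC content was 51.2% against 50.6%.

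The levels of the members covered a wide range. Counts per length are given as RPKM, CPM per 1000 bases of counted length, as means over the 7 libraries. Mrpl52, a large-subunit protein specific to mitochondria, was the highest at 322 RPKM, followed by Mrpl42 at 142, Mrpl54 at 117 and the small-subunit gene Mrps15 at 100. Among genes that passed the count filter, Mrpl1, whose bacterial counterpart forms a mobile stalk of the large subunit, was the lowest at 3.19 RPKM, followed by Mrps25 at 3.40 and Mrps33 at 4.10. The median was 22.1 RPKM, against 10.8 for all genes tested. The count filter removed 3 genes. Mrpl36 lay between 0 and 0.227 CPM, Mrpl23 between 0.213 and 0.681 and Mrps36 between 0.448 and 1.36. A count of 0 allows up to 3 counts, for counting error only. On library totals without TMM scaling that is 0.648 to 0.671 CPM, and Mrpl36 was below that limit in every library.

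**Figure D1:**
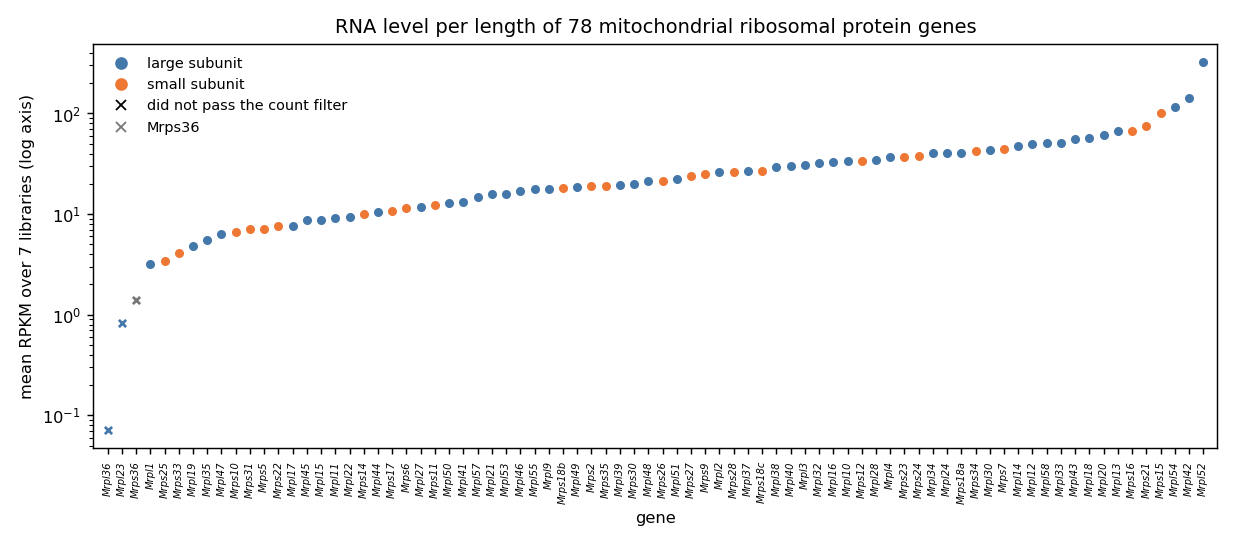
Mean RPKM over 7 libraries (log axis) of all 78 genes, in order of level; colours give the subunit and crosses mark the 3 genes that did not pass the count filter. Tested genes run from 3.19 (Mrpl1) to 322 (Mrpl52) with both subunits spread over the range.

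For some members the level is uncertain. The longest transcript of 7 members matches another gene over at least 20% of its length at 98% identity or more, as in Mrpl27 (72.5%) and Mrpl23 (68.9%, its pseudogene). The exons of 10 overlap those of another gene by at least 20%, as in Mrpl53 (88%), Mrps34 (77.8%) and Mrps25 (69.8%). Together these are 15 of the 78. The sources used here do not say how reads with several matches or in overlapping genes were counted. The known paralogs Mrps18a, Mrps18b and Mrps18c are separate genes, and of these Mrps18b and Mrps18c are among the 15.

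The summed level of the 78 genes differed by date and, within 2012, by group. It was 2751 and 2862 CPM in CD103 negative replicates 1 and 2, and 2531 and 2277 in CpG CD103 high. It was 2173 in CD103 negative replicate 3 and 2173 and 2250 in CD103 low. Both CpG libraries thus lay below both CD103 negative libraries of their date. On this scale all 3 untreated libraries of 2013 lay lower still, but 2277 and 2250 are close beside a pooled SD between replicates of 117 CPM. With no scaling that order was not kept. The genes took 0.2268% of counts in CpG CD103 high replicate 2 and 0.2282% in CD103 negative replicate 3. Against the mean of the CD103 negative libraries of 2012, large-subunit genes stood at 89.5% and 80.1% with CpG and at 75% to 78.7% in the libraries of 2013. Small-subunit genes stood at 91.8% and 84%, and at 83.5% to 84.2%. In sorted bulk samples, fewer cells of a type and less RNA per cell cannot be told apart.

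**Figure D2:**
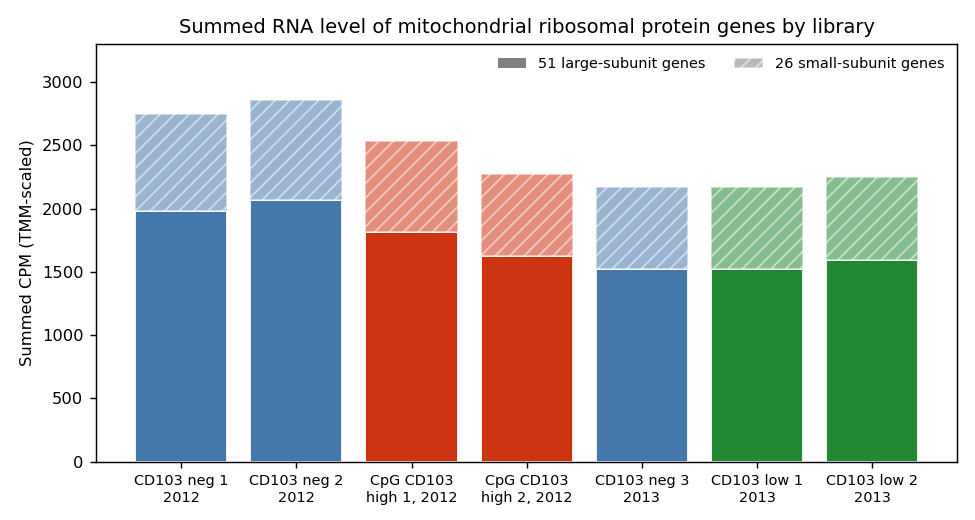
Summed TMM-scaled CPM of 51 large-subunit genes (solid) and 26 small-subunit genes (hatched) in each of the 7 libraries. Stacks are highest in CD103 negative 1 and 2 of 2012 and near 2173 to 2250 CPM in the 3 libraries of 2013.

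The first comparison set CpG CD103 high against CD103 negative cells, which asks how dendritic cells after the inflammatory stimulus differ from resting ones. Mitochondrial ribosomal protein genes were lower or did not pass the test. None of the 75 was called higher and 15 were called lower, 9 of 49 large-subunit and 6 of 26 small-subunit genes. A call means an adjusted p (Benjamini-Hochberg, over 10863 genes) under 0.05 in edgeR's quasi-likelihood test with group and date as terms. Among all genes tested, 26.3% were called, 14.5% higher and 11.8% lower. The share of members called in either direction was thus below that of all genes, and the share called lower above it. The log2 fold change was negative for 66 of the 75, against 50.6% of all genes tested. Its median was -0.26 (quartiles -0.41 and -0.11), against -0.01 for all genes, and became -0.12 after scaling for GC content and length. CPM of both CpG libraries lay below both CD103 negative libraries of 2012 for 44 of the 75 (58.7%), against 31.8% of all genes, and above them for 4. Against all 3 CD103 negative libraries, 18 of the 75 (24%) lay below, against 22.7% of all genes.

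With the date in the model, this comparison rests on CD103 negative replicates 1 and 2. The count of calls depended on single libraries and on the model, and so did the share of all genes called, which is given in brackets for each fit. Leaving out CpG CD103 high replicate 1 gave 9 calls (20%) and replicate 2 gave 4 (16.6%). Leaving out CD103 negative replicate 1 gave 4 (16.1%), replicate 2 gave 3 (17%), and either CD103 low replicate gave 7 (20.5%). A model with no date term gave 2 (14.6%), and DESeq2 gave 3 (13.4%). Mrpl39, Mrpl13 and Mrps28 passed the test whichever single library was left out, and each of the other 12 missed it at least once. Without CD103 negative replicate 3 and with no date term there were 15 calls (26.6%).

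Among large-subunit genes, Mrpl39 (Entrez 27393, mm10 chromosome 16, 84718281 to 84735244) had the smallest adjusted p. It encodes a protein of the large subunit that has no bacterial counterpart and resembles threonyl-tRNA synthetase. Mrpl39 measured 25.7 and 26 CPM in CpG CD103 high, 41.9, 42.3 and 38.9 in CD103 negative, and 39.7 and 37.7 in CD103 low. The CpG libraries lay apart from all 5 untreated libraries, which covered a narrow range over both dates. The log2 fold change was -0.70 (SE 0.12, adjusted p 0.00299). It was the only one of the 15 to keep its call in all 16 alternative settings, from -0.72 to -0.58.

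Mrpl13 (Entrez 68537, chromosome 15, 55534095 to 55557312) encodes the counterpart of bacterial protein L13. It measured 50.6 and 47.3 CPM with CpG against 80.4 and 79.5 in CD103 negative cells of 2012. In 2013 it measured 38.5 in CD103 negative and 31.8 and 40.9 in CD103 low cells. The log2 fold change with CpG was -0.71 (SE 0.13, adjusted p 0.00371), but the CpG libraries lay above the untreated libraries of 2013. Without the date term it gave -0.43 (adjusted p 0.342).

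Mrpl15 (Entrez 27395, chromosome 1, 4773198 to 4785750) encodes the counterpart of bacterial protein L15, an early-assembling protein of the large subunit. It measured 32.6 and 28.7 CPM with CpG, 44.6, 42.7 and 36.8 in CD103 negative cells and 39.1 and 35.6 in CD103 low cells. Both CpG values lay below all 5 untreated ones. With CpG it had a log2 fold change of -0.51 (SE 0.13, adjusted p 0.0182). Its adjusted p ranged from 0.0142 to 0.149 over the alternatives.

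Among the other large-subunit genes, Mrpl52 fell by 0.46 on the log2 scale (adjusted p 0.032). It measured 145 and 121 CPM with CpG and 171 and 196 in CD103 negative cells of 2012, but only 104 in CD103 negative replicate 3 and 82.6 and 108 in CD103 low cells. Mrpl17, a protein near the exit of the nascent chain, measured 47.7 and 43.7 CPM with CpG against 59.5 and 62.1 in 2012 and 43.8 to 52.6 in 2013, with a log2 fold change of -0.41 (adjusted p 0.0254). Mrpl51, Mrpl45, Mrpl35 and Mrpl50 had log2 fold changes between -0.49 and -0.45, with adjusted p from 0.0294 to 0.0488. Of these, Mrpl45 is known to tether the ribosome to the inner membrane. By origin, 4 of 28 large-subunit genes with a bacterial counterpart and 5 of 21 without one were lower, with medians of -0.20 and -0.25.

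Among small-subunit genes, Mrps28 (Entrez 66230, chromosome 3, 8802146 to 8923857), the relative of bacterial protein S1, had the smallest adjusted p. It measured 16.2 and 14.6 CPM with CpG, 25.7, 26.1 and 18.5 in CD103 negative cells and 15.4 and 16.8 in CD103 low cells. The CpG libraries overlapped CD103 low and lay below all CD103 negative libraries. Its log2 fold change was -0.75 (SE 0.16, adjusted p 0.00692).

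Mrps25, a small-subunit protein specific to mitochondria, measured 14.4 and 14.1 CPM with CpG, 19.3, 21.6 and 26.4 in CD103 negative and 23.8 and 25.1 in CD103 low cells. It is the called gene whose untreated libraries of 2013 lay above those of 2012. Its log2 fold change was -0.52 (SE 0.16, adjusted p 0.0391), and its exons overlap another gene. Mrps14 measured 18.4 and 17.7 CPM with CpG against 26.1 and 26.7 in 2012 and 15.9 to 16.6 in 2013, a log2 fold change of -0.55 (adjusted p 0.0225). Mrps6, Mrps35 and Mrps2 had log2 fold changes of -0.82, -0.51 and -0.38, with adjusted p of 0.0443, 0.0442 and 0.0446. By origin, 4 of 16 small-subunit genes with a bacterial counterpart and 2 of 10 without one were lower, with medians of -0.31 and -0.33.

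A minority of members leaned the other way. Mrpl42, Mrpl53, Mrps15 and Mrps27 were the 4 genes whose CpG libraries lay above all CD103 negative libraries. Of these, Mrpl53 and Mrps27 overlap another gene. Mrps27, a small-subunit protein with pentatricopeptide repeats, measured 57.0 and 48.6 CPM with CpG, 42.4, 48.1 and 35.5 in CD103 negative and 37.7 and 41.8 in CD103 low cells. Its log2 fold change of 0.22 (SE 0.13, adjusted p 0.243) was the largest positive one and did not pass the test. Mrps15 measured 103 and 100 CPM with CpG against 84.7 to 93.3 in CD103 negative cells, and Mrpl42 113 and 96.6 against 81.9 to 94.4. Mrpl42 passed the test as higher when counts were scaled for GC content and length.

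**Figure D3:**
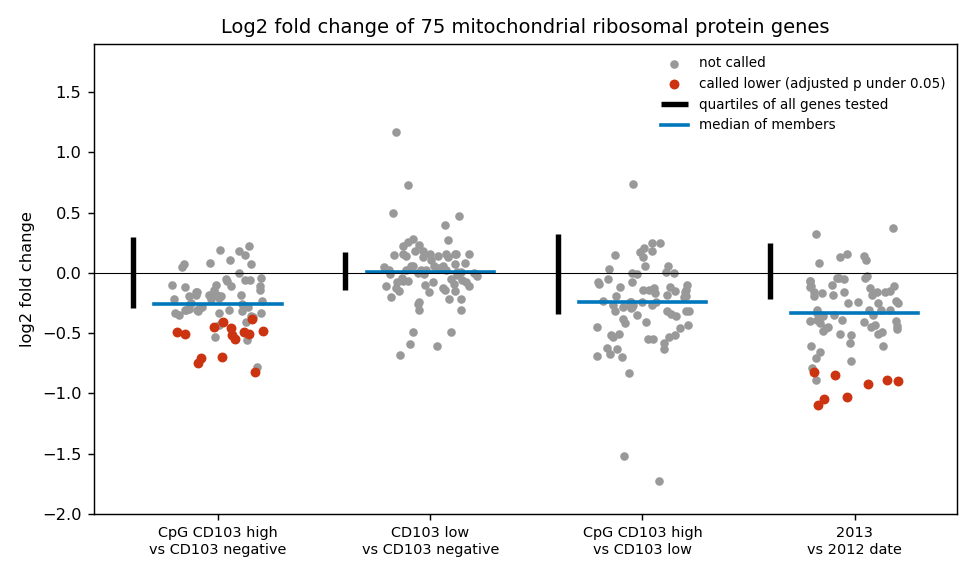
Log2 fold change (vertical axis) of the 75 tested genes in 4 comparisons; points are genes, red points were called lower, blue lines are medians of the genes and black bars the quartiles of all 10863 genes tested. The members' medians are -0.26, 0.01, -0.24 and -0.33 from left to right, with 15, 0, 0 and 8 called genes.

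The date comparison set CD103 negative replicate 3 of 2013 against replicates 1 and 2 of 2012, with the groups in the model, and shares replicates 1 and 2 with the first comparison. Of the 75 genes, 8 were called lower and none higher, 7 of 49 large-subunit and 1 of 26 small-subunit genes. Among all genes tested, 3.46% were called, 2.16% higher and 1.30% lower. The log2 fold change was negative for 68 of the 75, with a median of -0.33 against 0.01 for all genes tested and -0.16 after scaling for GC content and length. CPM of all 3 untreated libraries of 2013 lay below both CD103 negative libraries of 2012 for 48 of the 75 (64%), against 19.6% of all genes tested, and above them for Mrpl44 and Mrps25. That count takes in CD103 low cells, which differ in CD103 as well as in date. The date is carried by 1 CD103 negative library of 2013. In it the summed markers of type 2 and plasmacytoid dendritic cells were also highest. Its sum of neutrophil and monocyte markers, mostly Ly6c2 and Csf1r, was above the other untreated libraries. Leaving out either CD103 negative replicate of 2012 gave 2 calls, where 0.862% and 1.15% of all genes were called. Leaving out CD103 low replicate 1 gave 4 (1.27%) and CD103 low replicate 2 gave 5 (1.37%).

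Mrpl54 (Entrez 66047, chromosome 10, 81264722 to 81266926), a large-subunit protein specific to mitochondria, was called by date and not with CpG. It measured 83.7 and 86.4 CPM in CD103 negative and 83.6 and 78.9 in CpG CD103 high cells of 2012, but 45.5 in CD103 negative and 51.1 and 52.0 in CD103 low cells of 2013. Its log2 fold change was -0.90 for the date (SE 0.13, adjusted p 0.00849) and -0.07 for CpG (SE 0.10, adjusted p 0.664). It kept its date call in all 12 alternative settings.

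Mrps18a (Entrez 68565, chromosome 17, 46111004 to 46128908) measured 43.9 and 53.0 CPM in CD103 negative and 38.8 and 39.9 in CpG cells of 2012, against 22.6 in CD103 negative and 22.9 and 24.1 in CD103 low cells of 2013. Its log2 fold change for the date was -1.10 (SE 0.18, adjusted p 0.0135), with an adjusted p of 0.0524 without CD103 negative replicate 2. Mrpl20, whose bacterial counterpart is needed early in assembly of the large subunit, measured 45.3 to 56.3 CPM in the 4 libraries of 2012 and 26.2 to 29.8 in the 3 of 2013, with a log2 fold change of -0.89 (adjusted p 0.015). For both genes, the 2 dates did not overlap whatever the group.

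Mrpl13 and Mrpl52 were called by date as well as with CpG, with log2 fold changes for the date of -1.05 (adjusted p 0.0129, or 0.0568 without CD103 negative replicate 1) and -0.82 (adjusted p 0.0357). Mrps34, Mrpl33 and Mrpl46 had log2 fold changes of -0.92, -0.85 and -1.03, with adjusted p of 0.0337, 0.0456 and 0.0498. The largest positive value for the date was that of Mrps25, 0.37 (adjusted p 0.284).

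**Figure D4:**
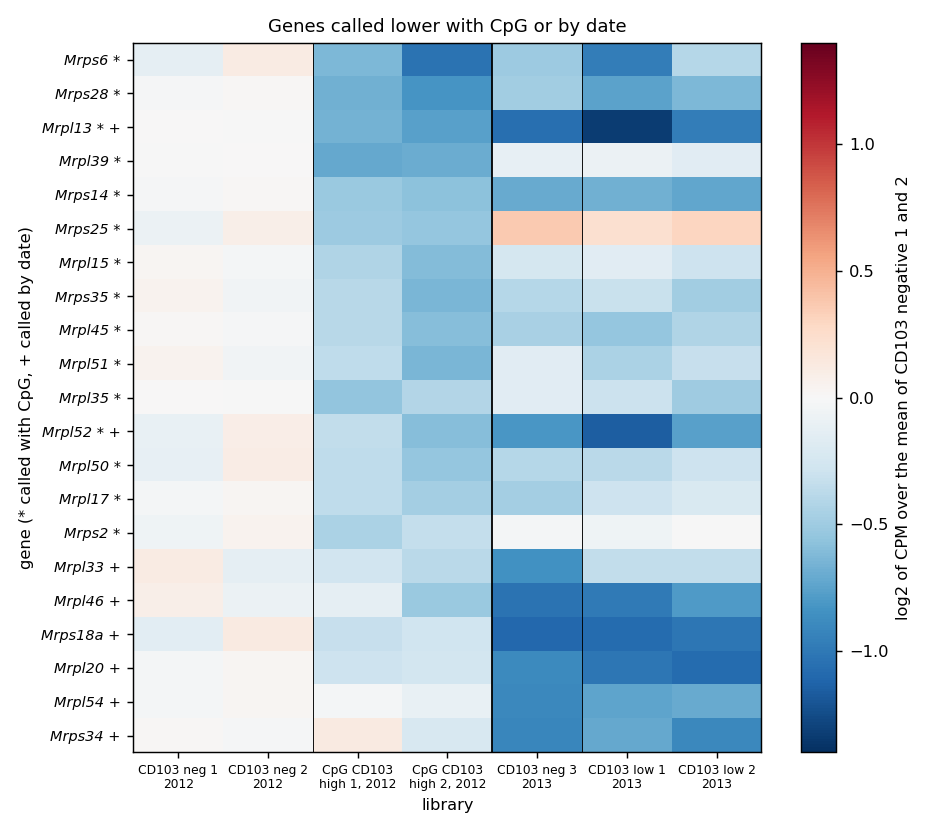
Log2 of the CPM of each library over the mean of CD103 negative replicates 1 and 2, for the 21 genes called lower with CpG (*) or by date (+); columns are libraries, 2012 to the left of the thick line. Mrpl39 is low in the 2 CpG columns alone, while Mrpl54, Mrps18a and Mrpl20 are low in the 3 columns of 2013.

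CD103 low cells were compared with CD103 negative cells to ask whether the untreated populations differ, and with the date in the model this rests on CD103 negative replicate 3 alone. No mitochondrial ribosomal protein gene was called, where 0.138% of all genes tested were. At an unadjusted p under 0.05, 3 genes were higher and 1 lower, against 482 higher and 315 lower of all 10863 genes tested. DESeq2 gave an adjusted p for only 17 of the 75 and called 0 of those. The median log2 fold change was 0.01, as in all genes tested. Mrpl15 gave 0.02 (SE 0.16, 95% interval -0.33 to 0.38, adjusted p 0.99). Intervals this wide do not show that the groups are alike. Leaving aside genes whose average log2 CPM was under 4, the largest rise was 0.50 in Mrpl33 (adjusted p 0.598) and the largest fall -0.31 in Mrpl2 (adjusted p 0.813). Measured across the dates, without CD103 negative replicate 3 and without the date term, 16 members were called lower, where 9.61% of all genes tested in that fit were called.

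CpG CD103 high and CD103 low samples share no date in the labels, so their comparison is the difference between the contrasts above. None of the 75 genes was called, against 6.22% of all genes tested, and DESeq2 also called 0. At an unadjusted p under 0.05, 10 were lower and none higher, against 1196 lower and 1357 higher of all 10863 genes tested. The log2 fold change was negative for 62 of the 75, against 51.9% of all genes tested. Its median was -0.24, against -0.02 for all genes. Mrpl39 was nearest to the threshold, at -0.69 (SE 0.19, adjusted p 0.0651). Mrps33 and Mrpl47, both of low abundance, had -1.73 (adjusted p 0.092) and -1.52 (adjusted p 0.0944). Both levels are uncertain, as 29% of the Mrps33 transcript matches another gene and 24.2% of the Mrpl47 exons overlap one. Mrps33 measured 7.72 and 6.67 CPM in CD103 low, 3.19 to 4.31 in CD103 negative and 2.66 and 2.47 with CpG. The direction rested on the date term: without it the median was 0.07 and 4 genes were called lower, among them Mrpl39 and Mrps25. In that fit, 8.01% of all genes tested were called.

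The wider machinery of mitochondrial translation was read from lists of known genes. Of 5 further subunits that do not carry a Mrpl or Mrps name, Chchd1, a small-subunit protein, was lower with CpG and the other 4 did not pass the test. Chchd1 measured 27.5 and 28.0 CPM with CpG, 39.7, 37.7 and 29.8 in CD103 negative and 32.0 and 30.8 in CD103 low cells (log2 fold change -0.48, SE 0.13, adjusted p 0.0204). Chchd1 missed the threshold when either CpG library or either CD103 negative library of 2012 was left out, with adjusted p from 0.0536 to 0.0895. Dap3, a small-subunit protein also known for its role in cell death, measured 40.6 and 37.2 CPM with CpG and 34.5 to 39.2 in CD103 negative cells (log2 fold change 0.08, adjusted p 0.692). None of 14 translation factors and none of 20 mitochondrial aminoacyl-tRNA synthetases was called with CpG, where 26.3% of all genes tested were. Their medians were 0.08 and -0.09. At an unadjusted p under 0.05, 2 and 1 of them were higher and none lower, against 2251 higher and 1998 lower of all 10863 genes tested. Of these, Oxa1l, which inserts new proteins into the inner membrane, gave 0.13 (adjusted p 0.445) and Lars2, the leucyl-tRNA synthetase, -0.18 (adjusted p 0.382).

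Of 25 assembly and ribosomal RNA modification factors, 2 were higher and 1 lower with CpG, against 14.5% and 11.8% of all genes tested. Mterf3 measured 27.1 and 29.8 CPM with CpG against 18.4 and 20.5 in CD103 negative cells of 2012, a log2 fold change of 0.55 (adjusted p 0.0222). Mettl17 measured 23.5 and 26.7 against 16.9 and 17.2, also 0.55 (adjusted p 0.0368). The GTPase gene Noa1 measured 29.1 and 23.1 against 39.1 and 38.2, a log2 fold change of -0.57 (adjusted p 0.0187). Each of the 3 missed the threshold with DESeq2 and when CpG CD103 high replicate 2 or either CD103 negative library of 2012 was left out, with adjusted p from 0.0514 to 0.253, and Mettl17 also without CpG CD103 high replicate 1 (0.053). Untreated libraries of 2013 lay between 23.7 and 29.7 CPM for Mterf3 and Mettl17, within or near the range of the CpG libraries.

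Of 13 genes that maintain mitochondrial DNA and its transcripts, 4 were lower and 1 higher with CpG, against 11.8% and 14.5% of all genes tested. Tfam, which packages mitochondrial DNA and starts its transcription, measured 16.9 and 17.3 CPM with CpG, 22.6, 25.2 and 22.1 in CD103 negative and 18.6 and 18.6 in CD103 low cells (log2 fold change -0.49, adjusted p 0.0416). Tefm, the elongation factor, gave -0.81 (adjusted p 0.0237), the helicase Twnk -0.82 (adjusted p 0.0387) and the exonuclease Mgme1 -1.02 (adjusted p 0.0254). The calls of Tfam and Twnk were not followed through the alternative settings. Mgme1 missed the threshold without any 1 of the 4 libraries of 2012 (adjusted p 0.0684 to 0.0972), and Tefm without CpG CD103 high replicate 2 (0.114) or CD103 negative replicate 1 (0.123). Polg, the catalytic subunit of the mitochondrial DNA polymerase, measured 37.0 and 46.6 CPM with CpG, 22.8 to 34.9 in CD103 negative and 24.3 and 22.3 in CD103 low cells. It was higher in CpG CD103 high than in CD103 negative cells, by 0.79 (adjusted p 0.00519), and than in CD103 low cells, by 1.37 (adjusted p 0.0142, or 0.0691 and 0.0755 without CD103 low replicate 1 or 2).

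Of 8 tested nuclear regulators of mitochondrial genes, 2 were higher with CpG, against 14.5% of all genes tested. Ppargc1b, a coactivator known for driving mitochondrial gene expression, had 43 and 32 counts in the CpG libraries and 3 in the CD103 negative libraries together, a ratio of rates of 38.7 (95% exact interval 12.8 to 192, counting error only). Its level was 9.54 and 7.17 CPM with CpG and 0 to 0.426 in the 5 untreated libraries (edgeR quasi-likelihood adjusted p 0.000462). Esrra, the nuclear receptor it partners with, measured 45.3 and 47.7 CPM with CpG and 31.5 to 35.2 in the untreated libraries (log2 fold change 0.54, SE 0.12, adjusted p 0.00969). Without CpG CD103 high replicate 2 or CD103 negative replicate 2 the adjusted p of Esrra was 0.0522 and 0.0523. The related coactivator Ppargc1a had no count in any library. For factors whose motifs were searched, Nrf1 gave 0.15 (adjusted p 0.438), Gabpa -0.22 (adjusted p 0.153) and Yy1 -0.09 (adjusted p 0.611). Gabpb1, which encodes another GABP subunit, gave -0.45 (adjusted p 0.0525). It measured 20.4 and 19.0 CPM with CpG and 23.8 to 28.9 in the untreated libraries. None of these genes passed the test, and the lists held no gene for an SP factor.

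Of 13 proteins encoded in mitochondria, the products of this ribosome, 7 had lower transcripts with CpG, against 11.8% of all genes tested. The complex I transcripts mt-Nd1 and mt-Nd2 fell by 0.28 (adjusted p 0.044) and 0.37 (adjusted p 0.0462) on the log2 scale. The other 5, mt-Co2, mt-Co3, mt-Atp6, mt-Atp8 and mt-Nd3, stood high in CD103 negative replicate 1, as mt-Co2 at 139 CPM there against 34.7 and 23.0 in the other CD103 negative libraries and 27.5 and 19.0 with CpG. All 5 measured at most 139 CPM in any library, against 9830 to 14000 for mt-Co1. How reads with several matches were counted is not known, so these values may not give the levels of the transcripts. The reason for the gap was not tested. Without CD103 negative replicate 1, mt-Co2 and mt-Co3 did not pass the test (log2 fold changes -0.58 and -0.44, edgeR adjusted p 0.144 and 0.28), and mt-Atp6 gave -0.82 (adjusted p 0.0236). Against CD103 low cells, mt-Nd1 and mt-Co1 were called lower with CpG, at -0.57 (adjusted p 0.0429) and -0.45 (adjusted p 0.037). Both calls were lost when either CD103 low replicate, or CD103 negative replicate 1 or 2, was left out (adjusted p 0.0735 to 0.162). With scaling for GC content and length they gave 0.03 (adjusted p 0.913) and -0.11 (adjusted p 0.537). Against CD103 negative cells, the calls of mt-Nd1, mt-Nd2, mt-Nd3 and mt-Atp8 were not followed through the alternative settings. The mitochondrial ribosomal RNAs, mt-Rnr1 and mt-Rnr2, were not called. The mt-Rnr2 level was 3020 and 1350 CPM in the CpG libraries and 2050 to 2730 in CD103 negative ones, so the CpG libraries spread more widely than the groups differed.

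The divergent neighbours did not all share the direction of the ribosomal protein genes. Of 33 members with such a neighbour, 32 were tested with CpG and 3 were lower: Mrpl13, Mrpl50 and Mrpl51. Of the neighbours, 30 were tested, and 6 were higher and 4 lower. Among all genes tested, 14.5% were higher and 11.8% lower in this comparison. Wdfy1 beside Mrpl44 was higher by 1.47 (adjusted p 0.00103) where Mrpl44 gave 0.11, and Twnk beside Mrpl43 was lower by the value given above where Mrpl43 gave 0.05. Mtbp beside Mrpl13 gave -0.55 (adjusted p 0.172).

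Proteins of the cytoplasmic ribosome offer a comparison for the direction. Of 72 tested, 39 were lower and none higher with CpG, with a median of -0.49, where 11.8% of all genes tested were lower. By date, 12 were lower, with a median of -0.30, where 1.30% of all genes tested were lower. Against CD103 low cells, 24 were lower with CpG, where none of the mitochondrial ribosomal protein genes and 302 of all 10863 genes tested were. Whether the families differ was not tested.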

How the data were processed

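RNA of 7 sorted CD8 dendritic cell samples was sequenced, and the deposited files hold whole-number read counts, not normalized, and a counted length for each gene, per the file headers. The submitters' processing notes name CASAVA, Subread 1.4.6, featureCounts and mm10, with no role for each. For annotation, strand setting and reads with several matches, nothing is given in the sources used here, so overlapping genes and copies cannot be told apart. A further table of 7 columns whose names match no sample label was not used here.

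Entrez identifiers were matched to RefSeq symbols (25275 of 27179, 93.0%; the rest held 0.533% of counts). With edgeR 4.0.16 in R 4.3.3, filterByExpr by group kept 10863 genes, libraries were scaled by TMM, and a quasi-likelihood model with group and date was fitted to all 7 libraries (3 residual degrees of freedom). P-values were adjusted over all genes by Benjamini-Hochberg, threshold 0.05. SE is the size of the log2 fold change divided by the square root of F. The design text calls the samples biological replicates. The test set effects against the spread between replicates of the same group and date, moderated across genes. CD103 negative replicate 3 is alone in its group and date and adds nothing to that spread. Alternatives were DESeq2 1.42.0, limma 3.58.1 voom, other filters and scaling, no date term, own date only, a replicate block, a GC and length offset, and each library left out. Leaving out members with copies or overlaps was chosen after seeing the data. Copies were found with BLAST+ 2.17.0. The fits were tested on simulated data.

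The genes and lists were chosen with earlier results of these data known. Members are named where called with CpG or by date, at the ends of each comparison (average log2 CPM of at least 4), or at the ends of the levels. List genes are named where called, or else as the most abundant. Mrps33, Mrpl47, Mrpl42, Mrpl53, Mrps15, Mrpl44, Dap3, Nrf1, Gabpa, Gabpb1, Yy1 and the neighbours were named after their values were seen.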

Additional observations from a re-analysis of the deposited data

How the results depend on the processing

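The direction of CpG CD103 high against CD103 negative and of the date comparison held for the median of the 75 genes under every alternative run, while the number of calls did not. For CpG CD103 high against CD103 negative, there were 15 calls, with 26.3% of all genes called. The calls became 6 with no count filter (13.5% of all genes), 3 with DESeq2 (13.4%) and 2 without the date term (14.6%). They became 9 with libraries of 2012 only (21.9%), and 6, of which 5 lower and 1 higher, with a GC and length offset (23.9%). With single libraries left out there were 3 to 9, and 15 with neither CD103 negative replicate 3 nor the date term. The median of -0.26 became -0.14 without the date term and -0.12 with the offset, and lay between -0.33 and -0.19 with libraries left out. For the date, 8 calls became 4 with no filter, 5 with DESeq2 (59 genes with an adjusted p) and 3 with the offset, and 2 to 10 with libraries left out, and the median of -0.33 became -0.16 with the offset. The share of all genes called by date was 3.46% in the main fit, 0.626% with no filter, 2.03% with DESeq2 and 2.09% with the offset. Leaving out members with copies or overlaps, chosen after seeing the data, left 14 and 7 calls among 62 genes.

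For CD103 low against CD103 negative, the median of 0.01 became -0.19 without the date term and lay between 0.00 and 0.05 with libraries left out, with 0 calls each time. For CpG CD103 high against CD103 low, no date term gave 4 calls and a median of 0.07, the offset 1 call and -0.06, and libraries left out 0 calls and medians from -0.34 to -0.20. With neither CD103 negative replicate 3 nor the date term, CD103 low against CD103 negative gave 16 calls, all lower, and a median of -0.32. CpG against CD103 low then gave 13 calls, 8 higher and 5 lower, and a median of 0.09. Of all genes tested, 9.61% and 15.5% were called in these comparisons. A replicate block was fitted without the date term, since the number 3 belongs to 1 library. The block gave 13 calls, all lower, and a median of -0.26 for CpG against CD103 negative, where 27.7% of all genes were called. For CD103 low against CD103 negative it gave 15, all lower, and -0.30 (10.8% of all genes). For CpG against CD103 low it gave 13, 8 higher and 5 lower, and 0.06 (16.3% of all genes). The comparisons with CD103 low then span the dates. Same-numbered samples did not deviate together (correlations of 0.17, -0.01 and 0.00), so the numbers were not taken as a pairing.

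Against CD103 negative, Mrpl15 in CD103 low changed sign from 0.02 to -0.15 without the date term, -0.23 with the replicate block, -0.05 without CD103 low replicate 1 and -0.25 with neither CD103 negative replicate 3 nor the date term. Mrpl33 went from 0.50 to -0.11, -0.34 with the block and -0.37 in that last fit. In CpG against CD103 low it went from -0.83 to 0.02, 0.02 and 0.04. There, mt-Nd1, called at -0.57, gave 0.03 with the offset. None of these values of Mrpl15 and Mrpl33 passed the test. The cause was not tested. Fits without the date term set samples of different dates against each other. The number of samples, 2 or 3 a group, and the depth of 4474211 to 4629181 counts limit how small a change can be called.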
